A study of Mus musculus with 4 samples.

Results

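The genes described here are 10 members of the extracellular nucleotide system of mouse macrophages, chosen by name: the G protein-coupled P2Y receptor genes P2ry2, P2ry6, P2ry12, P2ry13 and P2ry14, the ATP-gated channel genes P2rx4 and P2rx7, the ectonucleotidase genes Entpd1 and Nt5e, and the adenosine receptor gene Adora2b. Each symbol named 1 gene, so the 10 genes were 10 of the 34745 in the count table. The table held 4 RNA-seq libraries of cultured macrophages, bone marrow-derived per the study's methods and with no treatment in their labels, 2 labelled WT and 2 labelled G3bp1mac-/- (KO). In the study's methods the WT mice are G3bp1f/f, which carry floxed G3bp1 alleles, and the KO mice are the same floxed animals with Lyz2-Cre, a recombinase driven by a gene of the myeloid lineage that is active in granulocytes and monocytes as well as in macrophages. G3bp1 encodes a scaffold protein of stress granules, and the comparison asked which transcripts differed between macrophages of the 2 genotypes. No source used here gives the age of these mice, or says whether a library came from 1 mouse or whether libraries with the same replicate number were handled together.

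Cells that are stressed or dying release ATP, ADP, UTP, UDP and UDP-sugars, and neighbouring macrophages sense them through P2 receptors as signals of damage and as cues that guide them to the dying cell. P2X receptors are ion channels opened by ATP, and P2Y receptors couple nucleotides to heterotrimeric G proteins. The ectoenzyme CD39, encoded by Entpd1, cuts ATP and ADP down to AMP, and CD73, encoded by Nt5e, turns AMP into adenosine, which acts on receptors such as A2B.

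The libraries held between 16724241 and 19747909 counts. Macrophage genes were abundant in all 4, with Lyz2 at 297591 to 383749 counts and Cd68 at 52573 to 57779. G3bp1 itself was at 104 and 180 CPM in WT and at 70.1 and 116.6 CPM in KO, where CPM is counts per 1000000, scaled between libraries by the trimmed mean of M values (TMM). The KO level was 65.6% of the WT level on average and lower within each replicate number, but the groups overlapped. The table gives only whole-gene totals, so reads of the floxed part were not separated. Fold changes below are log2 of KO over WT from a quasi-likelihood fit of edgeR over the 12418 genes that passed a filter on low counts, and a gene was called at a Benjamini-Hochberg adjusted p under 0.05 and a log2 fold change beyond 1 in either direction.

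P2rx4 dominated the group, P2ry12 and Nt5e were barely detected, and the quasi-likelihood fit of edgeR on genotype alone called none of the 10 genes. Of the 8 members that passed the filter, 0 were called, and the same fit called 0 of the 12418 genes (0%). At an unadjusted p under 0.05, 1 of the 8 members passed, P2ry14, beside 823 genes (6.63%). DESeq2 called 181 genes (1.46%) and the exact test of edgeR 174 (1.40%), with 0 members in either. Fits that also held the replicate number gave other calls, listed with the alternative settings. Fitted changes were below 0 for 5 of the 8 tested members and above 0 for 3, with a median of -0.09 beside 0.04 over all tested genes.

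**Figure D1:**
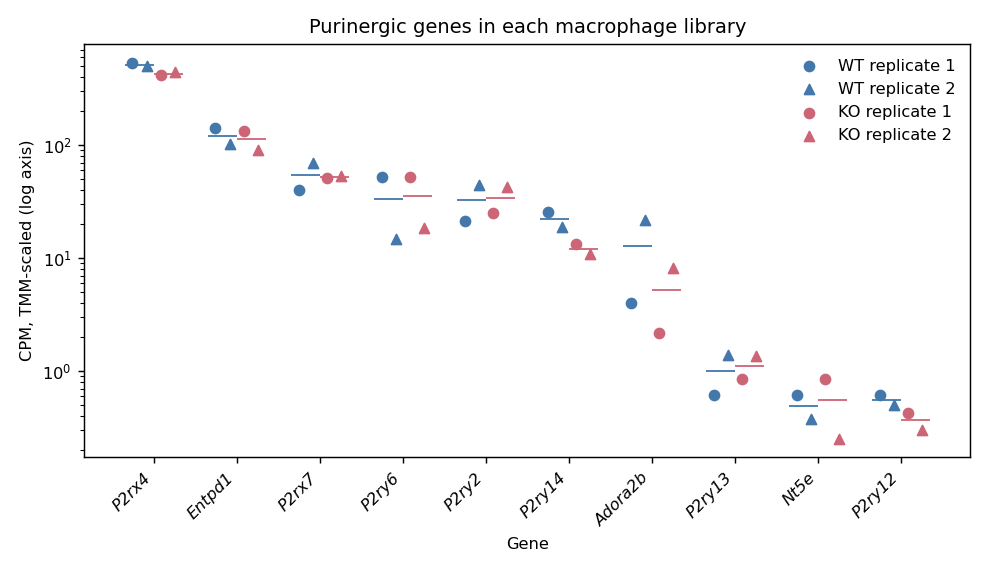
CPM of the 10 purinergic genes in the 4 libraries, on a log axis. Each symbol is 1 library, blue for WT and red for KO, and each line is a genotype mean. P2rx4 lies above 400 CPM in every library, and P2ry12 and Nt5e lie below 1 CPM in every library.

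The members spanned a wide range of levels, and compared with each other they have to be read per length of transcript. In FPKM, the fragments per kilobase and per 1000000 fragments computed by the authors, P2rx4 stood first at 49.4 to 53.8 in WT and 46.2 to 48.6 in KO, and its mean over the 4 libraries was above that of 92.6% of tested genes. P2ry6 followed at 7.19 to 25.9 FPKM in WT and Entpd1 at 11.3 to 15.8, and these ranges overlapped each other but not that of P2rx4. Adora2b, P2ry2 and P2rx7 formed a middle group with overlapping WT ranges, from 2.07 to 11.02, from 3.99 to 8.12 and from 3.58 to 6.10 FPKM. In KO their FPKM ranges did not overlap, with P2ry2 at 5.45 to 8.29, P2rx7 at 4.94 to 5.33 and Adora2b at 1.33 to 4.45. For P2ry2 and P2rx7 this depended on the length used, as given below. P2ry14 was next at 1.05 to 1.45 FPKM in WT and 0.642 to 0.871 in KO. P2ry13 was below it in both genotypes, and P2ry12 and Nt5e were last with overlapping ranges.

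This order depended in part on the length that FPKM divides by. For P2rx7 the deposited FPKM implied a length of 10672 bases, against 5970 bases of merged exons in GENCODE M21, and for P2ry12 it implied 8851 against 2546. The 2 lengths were equal for P2ry13 (2528) and Adora2b (1845), whose annotation has 1 transcript each. Divided by merged exon length instead, Entpd1 at 18.3 to 25.3 CPM per kilobase in WT stood just above P2ry6 at 5.13 to 18.2, while in KO their ranges of 16.4 to 24.0 and 6.42 to 18.2 overlapped, and P2rx7 moved ahead of P2ry2 and Adora2b in the mean. In KO, P2rx7 at 8.55 to 8.85 CPM per kilobase lay within the range of P2ry2, 6.39 to 10.9, so their separation in FPKM did not hold. P2rx4 remained first at 70.8 to 76.2 CPM per kilobase, and P2ry14, P2ry13, P2ry12 and Nt5e remained the last 4 in that order in WT.

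Among the channel genes, P2rx4, whose product is found on lysosomes and at the cell surface, was slightly lower in KO. Its CPM was 535 and 497 in WT and 413 and 440 in KO, from 7709 to 8690 counts a library. Both KO libraries lay below both WT libraries, as they did for 16.9% of tested genes. The log2 fold change was -0.28 (SE 0.22, 95% interval -0.83 to 0.27, edgeR adjusted p = 0.94), with KO below WT by 0.37 within replicate number 1 and by 0.18 within replicate number 2 on the log2 scale. On the FPKM scale, which has no TMM factor, the difference of the means was -0.12.

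P2rx7 encodes the channel that, at high ATP, starts activation of the NLRP3 inflammasome. It was at 40.0 and 69.1 CPM in WT and at 51.1 and 52.9 CPM in KO. The KO libraries sat between the WT libraries, nearly equal to each other, and KO was above WT by 0.35 in replicate number 1 and below it by 0.39 in replicate number 2. The log2 fold change was -0.07 (SE 0.32, 95% interval -0.89 to 0.75, edgeR adjusted p = 0.99), and without WT replicate 2 it was 0.35.

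P2rx7 and P2rx4 lie on the same strand of chromosome 5, 16.1 kb apart, P2rx7 at chr5:122643911-122691432 and P2rx4 at chr5:122707544-122729738. The 8 members with the same start and end in the count table and in GENCODE M21, these among them, are on GRCm38 coordinates. The bases just before the P2rx4 start site, the promoter side of the most abundant member, are shown as RefSeq gives them on GRCm38.p6 (chr5:122707294-122707543, plus strand), with each CG pair in capitals because their number varied widely between the members.
P2rx4: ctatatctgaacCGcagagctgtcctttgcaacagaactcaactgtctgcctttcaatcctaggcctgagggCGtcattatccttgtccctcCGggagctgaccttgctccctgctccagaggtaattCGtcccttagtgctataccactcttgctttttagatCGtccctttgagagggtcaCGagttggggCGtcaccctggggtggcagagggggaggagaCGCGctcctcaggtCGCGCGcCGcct
This stretch of 250 bases holds 13 CG pairs, and 68.5% of the 32851 promoter windows in the RefSeq table hold fewer over the same 250 bases.

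P2Y receptor genes came in 2 clusters. P2ry2, encoding a receptor for ATP and UTP, was at 21.5 and 44.3 CPM in WT and at 25.1 and 42.7 CPM in KO. P2ry6, encoding a receptor for UDP that promotes phagocytosis in microglia, was at 52.6 and 14.8 CPM in WT and at 52.5 and 18.5 CPM in KO. For both genes the libraries with replicate number 1 were alike across genotypes, as were those with number 2. The log2 fold changes were 0.04 for P2ry2 (SE 0.45, 95% interval -1.09 to 1.18) and 0.08 for P2ry6 (SE 0.74, 95% interval -1.80 to 1.96), each with an edgeR adjusted p of 0.99, so differences of more than 2-fold in either direction lay within both intervals.

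P2ry2 and P2ry6 are neighbours on the minus strand of chromosome 7, 32.2 kb apart, P2ry2 at chr7:100996572-101011991 and P2ry6 at chr7:100937638-100964391 in the count table, whose ends for these differ from those of GENCODE M21. They went opposite ways between the replicate numbers. P2ry2 was higher in number 2 by 1.04 in WT and by 0.77 in KO on the log2 scale. P2ry6 was lower in number 2, with log2 differences of -1.83 in WT and -1.50 in KO. Of the listed neighbours of the member genes, Fchsd2, Relt and Camkk2 overlapped between genotypes, and Arhgef17, a guanine nucleotide exchange factor gene, was at 9 and 14 counts in the WT pair and 64 and 48 in the KO pair (log2 fold change 2.02, SE 0.46, edgeR adjusted p = 0.33), with a call that changed when the replicate number entered the fit.

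P2ry14 encodes a receptor for UDP-sugars such as UDP-glucose, and it was the member with the clearest separation between the genotypes. Its level was 25.8 and 18.9 CPM in WT and 13.2 and 10.9 CPM in KO, from 419 and 302 counts against 247 and 215. Both KO libraries lay below both WT libraries, and KO was below WT by 0.96 in replicate number 1 and by 0.79 in number 2 on the log2 scale. The mean in KO, 12.1 ± 1.65 CPM, was 54.0% of that in WT, 22.4 ± 4.86 CPM (SD, n = 2 each). In the fit this was a log2 fold change of -0.89 (SE 0.27, 95% interval -1.58 to -0.19), with an unadjusted p of 0.021 and an edgeR adjusted p of 0.54, so it was not called. It stayed below 0 without each library in turn, from -1.13 to -0.64, and a correction for gene length gave -1.19 (adjusted p = 0.47). Its call changed when the replicate number entered the fit together with that correction.

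P2ry13 and P2ry12, both encoding receptors for ADP, sit next to P2ry14 on the minus strand of chromosome 3. P2ry14 spans chr3:59113855-59153618, P2ry13 chr3:59207892-59210882 and P2ry12 chr3:59216272-59262871. P2ry12 is known as a marker of microglia and as a platelet receptor. In these macrophages P2ry13 had 10 and 22 counts in the WT pair and 16 and 27 in the KO pair, which overlapped (log2 fold change 0.16, SE 0.58, edgeR adjusted p = 0.99). P2ry12 had 10 and 8 counts in the WT pair and 8 and 6 in the KO pair, or 0.305 to 0.616 CPM, where a count of 0 would allow up to 0.152 to 0.188 CPM for counting error. It did not pass the filter and was not tested, and its KO mean was 65.6% of its WT mean. The interval of P2ry13, 54.3 kb from P2ry14, ran from -1.32 to 1.64 and so includes a difference of the size seen for P2ry14.

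All 3 genes lie inside Med12l, a gene on the opposite strand at chr3:59005825-59318682, which had 26 and 7 counts in the WT pair and 28 and 11 in the KO pair. The strand setting of the counting is not given in the sources used here, so reads of either strand cannot be told apart. At 215 to 419 counts P2ry14 was far above Med12l, while P2ry12 and P2ry13 were near its level.

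Because the 3 genes of this cluster differed in level, the bases before their start sites are shown as RefSeq gives them on GRCm38.p6, minus strand, with CG pairs in capitals. For P2ry14 (chr3:59153619-59153742) the stretch ends where the GENCODE gene begins, and for P2ry13 (chr3:59210883-59211132) and P2ry12 (chr3:59262986-59263235) it is 250 bases long.
P2ry14: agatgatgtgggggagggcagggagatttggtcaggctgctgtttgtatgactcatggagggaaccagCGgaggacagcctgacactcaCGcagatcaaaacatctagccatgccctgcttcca
P2ry13: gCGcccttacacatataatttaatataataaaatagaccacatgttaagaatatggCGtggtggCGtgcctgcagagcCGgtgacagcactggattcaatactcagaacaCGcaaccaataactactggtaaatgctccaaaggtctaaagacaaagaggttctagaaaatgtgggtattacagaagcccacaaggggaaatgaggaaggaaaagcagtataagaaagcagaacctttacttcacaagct
P2ry12: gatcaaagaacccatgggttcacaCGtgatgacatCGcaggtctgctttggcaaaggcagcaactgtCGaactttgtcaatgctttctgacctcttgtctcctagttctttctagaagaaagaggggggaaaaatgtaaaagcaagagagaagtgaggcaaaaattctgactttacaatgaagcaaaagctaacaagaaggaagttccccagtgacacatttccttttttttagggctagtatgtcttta
Over the 250 bases before the first RefSeq start site, P2ry14 has 4 CG pairs, P2ry13 5 and P2ry12 3, against a median of 6 over all windows. Before the further P2ry14 start sites there are 1, 4 and 3 pairs. Windows of 300 bases that also take the first 50 of the transcript were searched on both strands for GAGGAA, a core bound by PU.1 and other ETS factors, and for GAAANNGAA, a core of interferon-stimulated response elements. The ETS core was in the first window of P2ry14, 21 bases before its RefSeq start site. That position lies inside the GENCODE gene and outside the stretch shown, and the further P2ry14 windows also held the core. In the P2ry13 window it was 48 bases before the start site, and the P2ry12 window lacked it, while 28.3% of all windows held it. The interferon-type core, held by 8.56% of all windows, was in none of the 15 windows of the 9 members that the table covers. The ETS core was also in both P2rx7 windows and in 1 Entpd1 window, and the P2rx4 and Adora2b windows held neither core.

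Entpd1 (chr19:40612366-40741602, plus strand), the gene of CD39, was the second most abundant member in CPM. It was at 141 and 102 CPM in WT and at 134 and 91.4 CPM in KO. The replicate numbers differed more than the genotypes, with KO below WT by 0.08 in number 1 and by 0.16 in number 2 on the log2 scale. The log2 fold change was -0.11 (SE 0.31, 95% interval -0.90 to 0.67, edgeR adjusted p = 0.98), and the FPKM means gave 0.06, in the other direction.

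Nt5e (chr9:88327197-88372092, plus strand), the gene of CD73, which acts on the product of CD39, was close to the detection limit. It had 10 and 6 counts in the WT pair and 16 and 5 in the KO pair, or 0.0267 to 0.101 FPKM, and was not tested. The first and the second enzyme of the same path were therefore measured at FPKM means of 13.8 and 0.0568 over the 4 libraries. Of other enzymes that can dephosphorylate AMP, Acpp, encoding an acid phosphatase with 5'-nucleotidase activity, had 74 and 124 counts in the WT pair and 131 and 129 in the KO pair (log2 fold change 0.14, SE 0.36, edgeR adjusted p = 0.98), which overlapped in CPM, and Alpl, encoding a phosphatase of broad specificity, had 0 and 1 in WT and 13 and 4 in KO.

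Adora2b had the largest fitted difference of the 8 tested members and the widest interval. Its receptor, A2B, responds to high adenosine and raises cyclic AMP through Gs. The gene (chr11:62248984-62266453, plus strand) was at 4.0 and 21.6 CPM in WT and at 2.20 and 8.22 CPM in KO, from 65 and 344 counts against 41 and 162. The groups overlapped, since KO replicate 2 exceeded WT replicate 1, but KO was below WT by 0.86 within replicate number 1 and by 1.39 within number 2 on the log2 scale. The log2 fold change was -1.29 (SE 0.95, 95% interval -3.71 to 1.13, edgeR adjusted p = 0.93), and this gene is one whose call changed when the replicate number entered the fit. Without WT replicate 2, the highest library, it was 0.35 in the other direction, and without the others in turn it ranged from -2.54 to -0.64.

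The upstream side of Adora2b (GRCm38.p6, chr11:62248734-62248983, plus strand) held the most CG pairs of the stretches shown.
Adora2b: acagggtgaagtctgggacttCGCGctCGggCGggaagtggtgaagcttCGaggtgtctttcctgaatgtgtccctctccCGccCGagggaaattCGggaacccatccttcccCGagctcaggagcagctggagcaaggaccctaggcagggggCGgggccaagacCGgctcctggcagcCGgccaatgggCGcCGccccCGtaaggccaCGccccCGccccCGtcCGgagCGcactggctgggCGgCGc
It has 22 CG pairs in 250 bases, more than 85.2% of all windows. Nt5e has 21 pairs, at far lower RNA levels. The P2ry2 windows, not shown, have 21 and 26 pairs. No window was listed for P2ry6.

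**Figure D2:**
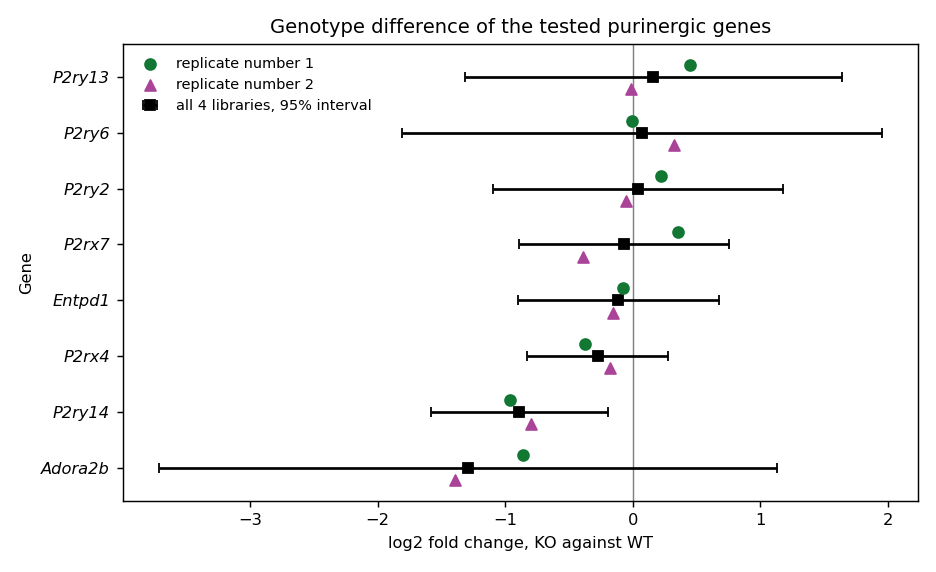
Log2 fold changes of KO against WT for the 8 tested members. Squares with bars are the fit over all 4 libraries with its 95% interval, circles the ratio within replicate number 1 and triangles within number 2. P2ry14 (-0.89) is the gene whose interval lies below 0, and Adora2b has the widest interval.

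Within replicate numbers, KO was below WT in both numbers for 4 of the 8 tested members, P2ry14, P2rx4, Entpd1 and Adora2b, beside 29.0% of all tested genes. It was above WT in both numbers for 0 of the 8, beside 36.0% of all. Both KO libraries lay below both WT libraries for P2ry14 and P2rx4, 2 of the 8 beside 16.9% of all tested genes, and for 0 members was the KO pair above the WT pair, beside 20.0% of all tested genes.

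Several members differed more between the replicate numbers than between the genotypes. Adora2b and P2ry6 differed more than 2-fold between the numbers in the same direction in both genotypes, which is 2 of 8 beside 6.78% of all tested genes. Adora2b was higher in number 2 by 2.42 in WT and by 1.89 in KO on the log2 scale, and P2ry6 was lower. P2ry2 and P2ry13 were higher in number 2 in both genotypes by less than 2-fold in KO, Entpd1 and P2ry14 were lower by less than 2-fold in both, and P2rx4 differed by at most 0.11. P2rx7 was higher in number 2 by 0.79 in WT and by 0.05 in KO. Over all genes, the first principal component, with 57.4% of the variance, separated the replicate numbers and the second, with 34.3%, the genotypes. What the numbers stand for is not given in the sources used here, and the spread within a genotype contains this difference.

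**Figure D3:**
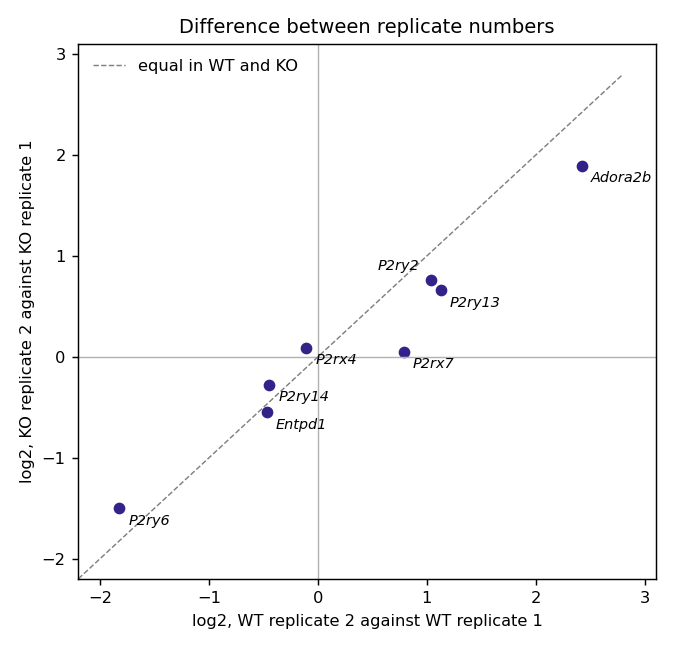
Log2 differences of replicate 2 against replicate 1 in WT (x axis) and in KO (y axis) for the 8 tested members, with the line of equal differences dashed. Adora2b lies at the upper right (2.42 and 1.89) and P2ry6 at the lower left (-1.83 and -1.50).

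The other genes of the pathway were taken from 5 lists of 58 genes, of which 43 were tested. The same fit called 0 of them, the exact test called 2 (Gja1 and Enpp3), beside 1.40% of all genes, and DESeq2 1 (Gja1), beside 1.46%. In the quasi-likelihood fit these 2 had an unadjusted p under 0.05, beside 6.63% of all genes. Of the 43, 29 were above 0 and 14 below, beside 6776 above 0 of all 12418, with a median of 0.15. The KO pair was above the WT pair for 9 of the 43 and below it for 4, beside the 20.0% and 16.9% of all tested genes.

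Among 11 other purinergic receptor genes, 4 were tested. P2ry1, another ADP receptor gene, had 377 and 102 counts in the WT pair and 627 and 201 in the KO pair, and so followed the replicate number as P2ry6 did (log2 fold change 0.56, SE 0.79, edgeR adjusted p = 0.97). Adora2a, whose receptor also couples to Gs, had 31 and 1024 counts in the WT pair and 30 and 1131 in the KO pair. It was higher in number 2, as Adora2b was, but stood at nearly equal levels in the genotypes within each number, with log2 differences of -0.25 and -0.16 against -0.86 and -1.39 for Adora2b. Whether the genotype difference differed between Adora2a and Adora2b was not tested. P2ry4 and Gpr17 had 0 counts in all libraries.

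Of 9 other ectoenzyme genes, 5 were tested. Enpp3, encoding a nucleotide pyrophosphatase known from basophils and mast cells, had 3 and 0 counts in the WT pair and 29 and 26 in the KO pair (quasi-likelihood unadjusted p = 0.0088, adjusted p = 0.37). The exact test of edgeR called it (adjusted p = 0.0037), as did the fits that held the replicate number, and DESeq2 did not (adjusted p = 0.14), and its fitted log2 fold change of 3.85 depends on the prior count. The 6 mast cell and basophil markers summed to 34.1 and 36.8 CPM in WT and 18.7 and 22.4 CPM in KO, with 3 tested, all 3 below 0, and Mcpt8 at 0 in all. Most of this sum was Cpa3, at 29.8 and 31.2 CPM in WT and 15.9 and 19.1 CPM in KO, while Gata2, with 2 and 4 counts in WT, had 8 and 9 in KO, and Kit overlapped. Enpp1, encoding an enzyme that makes AMP and pyrophosphate from ATP, had 523 and 389 counts in the WT pair and 825 and 585 in the KO pair (0.38, SE 0.30, edgeR adjusted p = 0.94). Cd38, encoding a NAD-consuming ectoenzyme, had 86 and 1607 counts in the WT pair and 132 and 1676 in the KO pair, a difference between replicate numbers.

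All 5 tested genes for ATP release were above 0 in the fit, beside 6776 of all 12418 tested genes, with a median of 0.32. Gja1, encoding connexin 43, was at 37 and 54 counts in the WT pair and 172 and 227 in the KO pair (log2 fold change 1.87, SE 0.35, 95% interval 0.99 to 2.75, quasi-likelihood adjusted p = 0.27), and was called by DESeq2 (adjusted p = 0.0056) and by the exact test of edgeR (adjusted p = 0.037), as well as by the fits that held the replicate number. Panx1, encoding the pannexin channel through which dying cells release ATP, was at 179 and 202 counts in the WT pair and 211 and 297 in the KO pair (0.16, SE 0.27, edgeR adjusted p = 0.97). Connexin 43 is abundant in stromal cells, and in these bulk libraries a difference in the number of cells of a type and in the RNA per cell cannot be told apart. The summed level of the 8 stromal markers was 78.6 and 92.1 CPM in WT and 345 and 322 CPM in KO, with 8 of 8 above 0 in the fit, the KO pair above the WT pair for 7 beside 20.0% of all tested genes, none at 0 counts, and Dcn, the most abundant, at 658 and 666 counts in the WT pair and 2224 and 2504 in the KO pair. Of these 8 markers the quasi-likelihood fit called 0, DESeq2 6, beside 1.46% of all genes, and the exact test 5, beside 1.40%, all higher in KO. The part of such cells in the Gja1, Enpp3 and Arhgef17 differences was not tested.

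**Figure D4:**
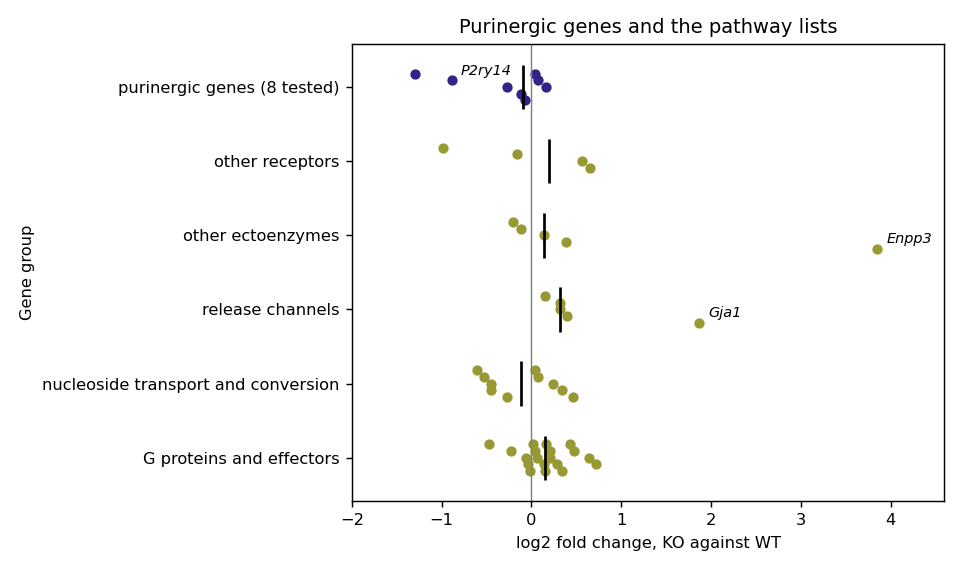
Log2 fold changes of KO against WT for the tested purinergic genes and for the tested genes of 5 pathway lists. Each point is 1 gene, black lines are medians, and genes with an unadjusted p under 0.05 are named. Release channels lie above 0 (median 0.32), and nucleoside transport and conversion has a median of -0.12.

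Genes of nucleoside transport and conversion were split, with 5 of 10 tested genes above 0 and 5 below. Ada, encoding adenosine deaminase, Pnp and Pnp2, encoding purine nucleoside phosphorylases, and Slc28a2, encoding a concentrative nucleoside transporter, were the 4 whose KO libraries both lay below both WT libraries, beside 16.9% of all tested genes, with log2 fold changes from -0.60 to -0.45 and edgeR adjusted p from 0.86 to 0.93. Of 19 tested G protein and effector genes, 14 were above 0 and 5 below, from -0.47 to 0.71, and in 4 the KO pair was above the WT pair, beside 20.0% of all tested genes. Gnai2 and Gnas, encoding the Gi and Gs subunits through which P2Y12 and A2B receptors act, were at 6156 to 7933 and 5268 to 6790 counts, with log2 fold changes of 0.07 and 0.02.

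Summed levels of the markers of other cells are given here beside the P2ry14 and Adora2b values, and the quasi-likelihood fit called 0 genes of any of these lists. In CPM summed over each list, neutrophil markers were at 20.2 and 20.9 in WT and 7.24 and 10.9 in KO, with Mpo and Elane at 0 and 2 of 7 tested. The KO pair was below the WT pair for both tested genes, beside 16.9% of all tested genes. DESeq2 and the exact test each called 1 of them, S100a9, beside 1.46% and 1.40% of all genes. B cell markers were at 21.9 and 22.9 in WT and 11.9 and 11.1 in KO, with 4 of 6 tested, all 4 with the KO pair below the WT pair, beside 16.9% of all tested genes. Platelet and megakaryocyte markers, nearly all from Pf4, were at 225 and 149 in WT and 80.9 and 115 in KO, with Gp9 at 0. Erythroid markers were at 9.43 and 7.02 in WT and 1.66 and 2.29 in KO. The KO pair was below the WT pair for both tested genes, beside 16.9% of all tested genes. Of these, 1 was called by each of DESeq2 and the exact test, beside 1.46% and 1.40% of all genes. T and NK cell markers were at 0.912 to 1.66 in all, none tested. Dendritic markers were at 3.70 and 7.59 in WT and 4.24 and 6.60 in KO, and endothelial markers at 6.35 and 4.33 in WT and 7.13 and 2.79 in KO, both overlapping. Macrophage markers summed to 26410 and 24540 in WT and 21090 and 24570 in KO, most of it Lyz2 at 16860 to 21860, and the symbol Itgam named 2 genes, with log2 fold changes of 0.82 and -1.11. Of 14 tested interferon-stimulated genes, 13 were below 0 in the fit, beside 5642 of all 12418 tested genes, with a median of -1.32. The quasi-likelihood fit called 0 of them, the exact test 1 (Usp18), beside 1.40% of all genes, and DESeq2 4 (Irf7, Oas1a, Oasl2 and Usp18), beside 1.46%. More were called when the replicate number entered the fit. Neither tool called a gene of the B cell, platelet, dendritic, endothelial or macrophage lists. The fit with the replicate number as a block called genes of the B cell list and 1 of the 2 Itgam genes, all lower in KO. The part of these cells or genes in the P2ry14 and Adora2b differences was not tested.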

How the data were processed

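RNA was sequenced from macrophage cultures of WT and G3bp1mac-/- mice, 2 libraries each, grouped by their labels. Per the study's methods, the authors used Seqtk for read filtering, HISAT2 for alignment and StringTie for counting. HISAT2 2.0.4, StringTie 1.3.3b and mm39 are named in the submitters' processing notes, but 27686 of the 34344 genes whose identifiers are in GENCODE M21 (GRCm38) have exactly its start and end in the table. The deposited table holds whole-number counts per gene and FPKM values. FPKM used a length other than merged exons for most genes, and it was used for the order of levels and, for P2rx4 and Entpd1, for a difference of means without TMM.

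Counts were tested with edgeR 4.0.16 in R 4.3.3 (TMM scaling, filterByExpr with a minimum count of 10, quasi-likelihood F-test, genotype only) over 12418 genes, with Benjamini-Hochberg adjustment over all of them. DESeq2 1.42.0 was an alternative. CPM is TMM-scaled, and ratios within a replicate number add 0.5 counts. The script was tested on simulated data. With no source on separate mice, p-values measure only the spread between these libraries. The limit for a count of 0 is 3 counts and covers counting error only. Merged exon lengths are from GENCODE M21 and promoter sequences from RefSeq (GRCm38.p6). The members, gene lists and tests were chosen with earlier results of these data known. Every member was named, as were pathway genes with an unadjusted p under 0.05. 1 marker gene is not reported here. Further listed genes were chosen for naming once values were known. Alternatives were other scaling, filters and tests, no minimum fold change, a replicate block, a gene length correction and leaving out each library. Those for Gja1, Enpp3 and the interferon genes were chosen after seeing the data.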

Additional observations from a re-analysis of the deposited data

How the results depend on the processing

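Of the 10 members, 0 were called under scaling by DESeq2 size factors, without the filter, under a filter at mean CPM 1, with no minimum fold change, by DESeq2, by the exact test, after a gene length correction, or without any library in turn (range 0 to 0). Over all genes, 0 were also called without each library in turn (range 0 to 0). Those fits leave 1 library in a genotype, assumed to vary like the other genotype, and since the full fit called 0 they do not show stability. All genes called numbered 181 with DESeq2, 174 with the exact test, 664 (5.35%) with the replicate number as a block and 368 (2.96%) with the block and a gene length correction. With the replicate block 1 member was called, Adora2b (-1.18, adjusted p = 0.00091), and with the block and length correction 1, P2ry14 (-1.16, adjusted p = 0.013). P2ry14 had -0.88 (adjusted p = 0.0062) with the block alone, and Adora2b -1.07 (adjusted p = 0.054) with both. With 2 numbers the pairing cannot be established. The deviations of same-numbered libraries correlated at 0.71 across genes, a hint from the data and not from the design. The cause of these changes was not tested.

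P2ry2 was at -0.048 after the length correction and at -0.020 when the block was added. Leaving out 1 library gave -0.39 to 0.62 for P2ry2, -0.86 to 1.27 for P2ry6, -0.30 to 0.82 for P2ry13, -0.41 to 0.35 for P2rx7, -0.41 to 0.15 for Entpd1 and -2.54 to 0.35 for Adora2b, so their direction depended on single libraries. P2rx4 and P2ry14 stayed below 0 in every fit, from -0.47 to -0.22 and from -1.19 to -0.64. P2ry12 and Nt5e, tested only without the filter, had -0.62 and 0.13 (adjusted p = 0.87 and 0.98). With 2 libraries a genotype and members at 5 to 27 counts, depth limits P2ry12, P2ry13 and Nt5e.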
